A study of Mus musculus with 4 samples.

Results

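RNA polymerase III transcribes a small set of short non-coding RNAs, and 8 of the 53379 genes in the deposited tables were taken from among its products, by exact match to their symbols: *Rn7s1* and *Rn7s2* (7SL RNA), *Rn7sk* (7SK RNA), *Rmrp*, *Rpph1*, *Rny1*, *Rny3* and *Vaultrc5*. The rule used symbols alone. Their share of each library and their change between pre-ALT cells (PD100) and post-ALT cells (PD800) were measured, where ALT is alternative lengthening of telomeres, the telomerase-independent upkeep of chromosome ends. All 4 libraries came from DKO741, a single *Terc*-/- line that was made from E14 mouse embryonic stem cells by targeting both alleles of the telomerase RNA gene, with 2 libraries at PD100 and 2 at PD800. The study describes the duplicates as biological, and p-values measure only the spread between them. No *Terc*+/+ library was analysed here, so that time in culture cannot be told apart from ALT activation. The methods speak of population doublings 100 and 800, whereas the labels also speak of passages, and the paper speaks of mRNA sequencing whereas the labels name total RNA.

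Each of these RNAs works with proteins. 7SL RNA is the scaffold of the signal recognition particle (SRP), which carries ribosomes that make secreted and membrane proteins to the endoplasmic reticulum. 7SK RNA, capped by MEPCE and bound by LARP7, holds the kinase P-TEFb (CDK9 with a cyclin T) inactive through HEXIM proteins and so limits the release of paused RNA polymerase II. *Rpph1* encodes the catalytic RNA of RNase P, which trims the 5′ end of tRNA precursors, and *Rmrp* encodes the related RNA of RNase MRP, which cuts ribosomal RNA precursors. Both enzymes share most of their proteins. Y RNAs (*Rny1*, *Rny3*) are bound by Ro60 and La, and the vault RNA (*Vaultrc5*) belongs to the vault particle, whose shell is made of MVP. RNA polymerase III usually stops at a run of T bases in the non-template strand, and the La protein binds the resulting run of U at the 3′ end of new transcripts.

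The sequences set what can be counted. They were read from the GENCODE M21 transcripts (GRCm38, the assembly also called mm10), in which T stands for U. *Rn7s1* (ENSMUSG00000099021.1, chr12:69159295-69159594, plus strand) and *Rn7s2* (ENSMUSG00000099250.1, chr12:69361182-69361481, minus strand) lie 201588 bases apart and did not differ at any of their 300 bases (0 differing bases), so that RSEM could divide their reads only by estimate. The division between these genes is therefore uncertain, and their sum is the measure of 7SL RNA.

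The annotated 3′ ends differed among the transcripts. The genomic bases that follow them were not read, so these runs describe the annotation and not where transcription stops. *Rn7sk* (ENSMUSG00000065037.1, chr9:78175303-78175633, minus strand, 331 bases) ended in 3 T bases as annotated, and *Rny1* and *Rny3* in 4, against 2 for 7SL RNA and 0 for *Rpph1* and *Rmrp*. The last 60 bases of 7SK RNA (bases 272 to 331, end run in capitals) and of *Rpph1* (bases 260 to 319 of ENSMUSG00000092837.1, chr14:50807449-50807767, minus strand) are set side by side to show an end with such a run and one without it:
Rn7sk: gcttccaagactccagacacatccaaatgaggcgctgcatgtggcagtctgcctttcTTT
Rpph1: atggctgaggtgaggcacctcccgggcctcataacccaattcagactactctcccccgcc

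A second annotated gene covers *Rmrp*. *Rmrp* (ENSMUSG00000088088.1, chr4:43492788-43493058, minus strand, 271 bases) lies wholly within AL732506.1 (ENSMUSG00000115420.1, a lincRNA on the same strand), which has 5 extra bases at each end, so that read pairs from inside *Rmrp* match both. The longer transcript is shown with the bases outside *Rmrp* in capitals:
AL732506.1 (chr4:43492783-43493063): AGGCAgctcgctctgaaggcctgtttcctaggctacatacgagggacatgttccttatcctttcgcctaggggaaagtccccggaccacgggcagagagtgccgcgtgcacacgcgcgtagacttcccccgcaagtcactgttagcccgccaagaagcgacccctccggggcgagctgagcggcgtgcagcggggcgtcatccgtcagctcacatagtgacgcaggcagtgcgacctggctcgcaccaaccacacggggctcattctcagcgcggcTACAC

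The Y RNA genes lie 6344 bases apart on opposite strands of chromosome 6. Their transcripts had 81 identical bases over 112 alignment columns (72.3%), with a longest shared run of 12 bases, which is in capitals below. They are shown because both are little longer than a single read, and their counts were near 0:
Rny1 (ENSMUSG00000065701.1, chr6:47788069-47788180, minus strand): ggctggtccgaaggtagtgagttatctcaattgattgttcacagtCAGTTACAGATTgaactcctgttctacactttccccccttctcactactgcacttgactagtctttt
Rny3 (ENSMUSG00000064945.1, chr6:47781624-47781725, plus strand): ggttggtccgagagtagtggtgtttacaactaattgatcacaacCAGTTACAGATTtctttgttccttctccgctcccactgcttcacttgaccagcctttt

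Depth was similar in the 4 libraries, with total expected counts between 32454121 and 38492149. An expected count is RSEM's estimate of the read pairs from a gene, with pairs that match several genes divided between them. The mean fragment length estimated by RSEM was 170 bases in PD100 replicate 1, 148 in PD100 replicate 2, 163 in PD800 replicate 1 and 162 in PD800 replicate 2. *Terc*, the targeted gene, had 1 count in PD100 replicate 1 and 0 in the other libraries. Summed markers of pluripotent stem cells (6 of 6 above 3 counts in every library) lay at 1303 to 1312 CPM in PD100 and 2431 to 2435 CPM in PD800, where CPM is the count scaled to the size of the library. Those of primitive endoderm (7 of 8) lay at 1849 to 2072 and 147 to 155 CPM, and those of fibroblasts, the feeder cells of maintenance cultures (5 of 7), at 47.6 to 69.6 and 10.4 to 11.4 CPM, with *Lum* at 0 in 3 libraries. The methods state that the cells taken for RNA had been grown without feeders. *Col4a1* and *Lama1*, the most abundant of the primitive endoderm markers, are also made by other cells. The part of these cell states in the values below was not tested, and in bulk RNA fewer cells of a type and less RNA per cell cannot be told apart.

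The 8 transcripts together took 7.03% of the expected count in PD100 replicate 1, 9.95% in PD100 replicate 2, 9.64% in PD800 replicate 1 and 10.6% in PD800 replicate 2. The groups overlapped, since PD100 replicate 2 lay above PD800 replicate 1. The mean was 8.49% ± 2.06 (SD, n = 2) in PD100 and 10.1% ± 0.686 (SD, n = 2) in PD800, a difference of 1.63 percentage points that did not exceed the spread between replicates (two-sided exact permutation test, p = 0.667, where the smallest p that 2 against 2 libraries can give is 0.333). Without PD100 replicate 1 the difference was 0.176 points, and without PD100 replicate 2 it was 3.09 points. Nearly all of this share came from 7SL and 7SK RNA. By mean expected count, *Rn7s1*, *Rn7s2* and *Rn7sk* ranked 2, 3 and 4 among all 53379 genes, behind the mitochondrial ribosomal RNA gene *mt-Rnr2*, and *Rmrp* and *Rpph1* ranked 13 and 18. *Vaultrc5* ranked 10952, *Rny1* 15785 and *Rny3* 25411, so that these 3 were not abundant in the libraries.

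**Figure D1:**
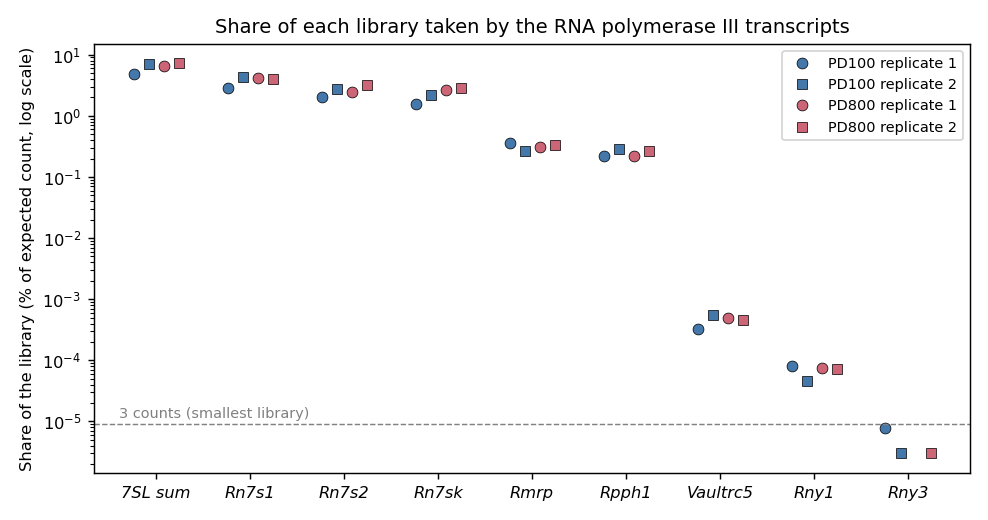
Share of each library's total expected count (percent, log scale) taken by each transcript, with 1 point per library, PD100 in blue and PD800 in red. 7SL and 7SK RNA sit above 1% in all 4 libraries, *Rmrp* and *Rpph1* between 0.218% and 0.354%, and *Vaultrc5* and the Y RNAs orders of magnitude lower, with *Rny3* at or under 3 counts (dashed line) and its PD800 replicate 1 value of 0 not drawn.

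Per unit of length, the order was the same. The TPM of *Rn7s1*, which RSEM scales for effective length, had a mean of 183250 over the 4 libraries, followed by *Rn7s2* with 124087, *Rn7sk* with 90195, *Rmrp* with 19353 and *Rpph1* with 10518. The ranges of neighbours in this order did not overlap in TPM: *Rn7s1* lay between 158747 and 197175, *Rn7s2* between 113051 and 142086, *Rn7sk* between 71043 and 103987, *Rmrp* between 14523 and 24907 and *Rpph1* between 9297 and 11182. The order of *Rn7s1* and *Rn7s2* rests on the uncertain division of their reads. No level per length is given for the 3 shortest transcripts, since their effective lengths were 0 in all libraries for *Rny3* (102 bases), 0 to 1.34 bases for *Rny1* (112 bases) and 8.60 to 13.2 bases for *Vaultrc5* (143 bases). An effective length near 0 means that few fragments of the estimated size would fit in the transcript.

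For the comparison of PD800 with PD100, edgeR's quasi-likelihood test was run over 19148 genes, and a call required more than 2-fold change and a Benjamini-Hochberg adjusted p below 0.01. Of the 8 transcripts, 7 passed the expression filter and none was called (0 higher, 0 lower), against 6.28% of all tested genes called higher, 8.81% called lower and 15.1% called in either direction. DESeq2 also called 0 at these thresholds, against 1070 of all tested genes called higher and 1557 called lower. In edgeR, 1 of the 7 had an unadjusted p under 0.05, whereas 45.6% of all tested genes had an adjusted p under 0.05. In share of the library, the groups did not overlap for 1 of these 7, *Rn7sk*, against 74.0% of tested genes with no overlap in either direction. For *Rn7sk* both PD800 libraries lay above both PD100 libraries, as for 30.9% of tested genes.

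With all 4 libraries in the fit, 7SK RNA had the largest estimated difference of the 7. *Rn7sk* had 603118 counts (1.57% of the library) in PD100 replicate 1, 720600 (2.22%) in PD100 replicate 2, 976505 (2.61%) in PD800 replicate 1 and 938168 (2.81%) in PD800 replicate 2. Both PD800 libraries were thus above both PD100 libraries, with means of 1.89% ± 0.462 and 2.71% ± 0.145 (SD, n = 2). On the scale of edgeR's TMM-normalised counts, the log2 fold change was 0.63 (SE 0.18, 95% interval 0.18 to 1.07), or 1.54-fold (1.13 to 2.10), with an adjusted p of 0.0332 in edgeR (quasi-likelihood, Benjamini-Hochberg). This missed both thresholds, although the interval does not include 0 and its upper end passes 2-fold. An adjusted p under 0.05 with no fold threshold was reached by 45.6% of all tested genes. The exact permutation test of the share gave p = 0.333, the smallest it can give. The size depended on the PD100 libraries: the log2 fold change was 0.39 without PD100 replicate 1 and 0.89 without PD100 replicate 2. Without PD100 replicate 1, *Rny1* (0.76) and *Rmrp* (0.40) had larger values than *Rn7sk*.

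7SL RNA, the sum of *Rn7s1* and *Rn7s2*, took 4.88% of PD100 replicate 1, 7.18% of PD100 replicate 2, 6.50% of PD800 replicate 1 and 7.18% of PD800 replicate 2. PD100 replicate 1 stood below the other 3 libraries, and the groups overlapped. It was also the library with the longest mean fragments (170 bases), and the part of fragment length was not tested. Summed 7SL RNA had a log2 fold change of 0.29 (SE 0.20, 95% interval -0.19 to 0.77), or 1.22-fold (0.878 to 1.70), with an adjusted p of 0.273 in edgeR. It was 0.03 without PD100 replicate 1 and 0.59 without PD100 replicate 2. The interval leaves room for a change of up to 1.70-fold upward and does not reach 2-fold. Taken singly, *Rn7s1* had 1098155, 1424577, 1528636 and 1343762 counts in PD100 replicates 1 and 2 and PD800 replicates 1 and 2, and *Rn7s2* had 782049, 904991, 905970 and 1052933. The ratio of *Rn7s1* to *Rn7s2* lay between 1.28 (PD800 replicate 2) and 1.69 (PD800 replicate 1), so that the widest split between libraries was within PD800. Their log2 fold changes were 0.27 (SE 0.21, adjusted p = 0.336 in edgeR) and 0.32 (SE 0.20, adjusted p = 0.243 in edgeR). They were -0.01 and 0.10 without PD100 replicate 1, and 0.61 and 0.56 without PD100 replicate 2.

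**Figure D2:**
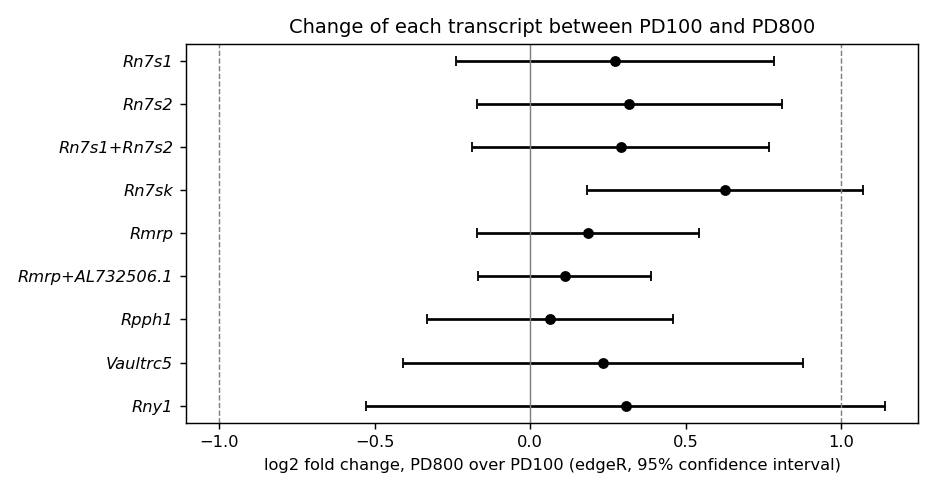
Difference between PD800 and PD100 (log2 fold change, PD800 over PD100) of each tested transcript and for the sums of *Rn7s1* with *Rn7s2* and of *Rmrp* with AL732506.1, as points with 95% confidence intervals from edgeR, and dashed lines at a 2-fold change. The interval of *Rn7sk* (0.18 to 1.07) lies above 0, and all the others include 0.

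The RNase P and RNase MRP RNAs showed smaller differences. *Rpph1* took 0.222% and 0.282% of the PD100 libraries and 0.218% and 0.270% of the PD800 libraries. The lowest and the highest of these values thus belonged to different groups, and each group spanned most of the range. Its log2 fold change was 0.06 (SE 0.16, 95% interval -0.33 to 0.46, adjusted p = 0.774 in edgeR), and it was -0.11 without PD100 replicate 1, 0.24 without PD100 replicate 2 and -0.09 without PD800 replicate 2. *Rmrp* took 0.354% and 0.265% of the PD100 libraries and 0.312% and 0.339% of the PD800 libraries, and both PD800 values fell between those of PD100. The log2 fold change of *Rmrp* was 0.19 (SE 0.15, 95% interval -0.17 to 0.54, adjusted p = 0.344 in edgeR), and it was -0.02 without PD100 replicate 2 and 0.40 without PD100 replicate 1. PD100 replicate 2, the lowest in *Rmrp*, was also the library with the shortest fragments.

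Counting at both loci is open to sharing of reads. AL732506.1 was assigned 39994 and 36958 counts at PD100, then 34591 and 30711 at PD800, and *Rmrp* held 77.3%, 69.9%, 77.1% and 78.7% of the sum of both in PD100 replicates 1 and 2 and PD800 replicates 1 and 2. PD100 replicate 2 was again the library that stood apart. With the counts of both genes summed, the log2 fold change was 0.11 (SE 0.11, 95% interval -0.17 to 0.39, adjusted p = 0.474 in edgeR). Without PD100 replicate 1 the sum gave 0.24 (adjusted p = 0.00425 in edgeR), and without PD100 replicate 2 it gave -0.03. The 5 annotated transcripts at least 80% identical to *Rpph1* over at least 60% of its length held 11.1% to 15.5% of its own count, of which *Rprl3*, 86.0% identical, held the most, with 8495 to 13325. One of them is *Ccnb1ip1*, which overlaps *Rpph1* on the same strand and was assigned 831 to 1065 counts. *Ccdc107*, on the opposite strand, overlaps *Rmrp* and had 169 to 276 counts, and whether the counting used strand is not given in the sources used here. Near copies of the more abundant RNAs held little: 10 copies of 7SL RNA had 612 to 1063 counts together, and 31 copies of 7SK RNA had 1628 to 3368, or 0.270% to 0.422% of the count of *Rn7sk*. The largest of the latter, *Gm24447*, was identical to *Rn7sk* over the aligned 72.8% of the *Rn7sk* transcript.

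Ratios between transcripts of the same library do not depend on how libraries are scaled, and those given here were picked with the values in view. The ratio of 7SL to 7SK counts was 3.12 and 3.23 at PD100, compared with 2.49 and 2.55 at PD800. The gap between the groups was wider than the distance between replicates of either. The ratio of 7SK to *Rpph1* was 7.05 and 7.89 in PD100 and 11.9 and 10.4 in PD800, again with no overlap. For 7SL over *Rpph1* the values were 22.0 and 25.5 in PD100 and 29.8 and 26.6 in PD800, also with no overlap. *Rmrp* with AL732506.1 over *Rpph1* gave 2.06 and 1.35 in PD100 and 1.85 and 1.598 in PD800, so that the PD800 values lay inside the PD100 range. An exact permutation test of such a ratio cannot give a p under 0.333, and no test was made.

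**Figure D3:**
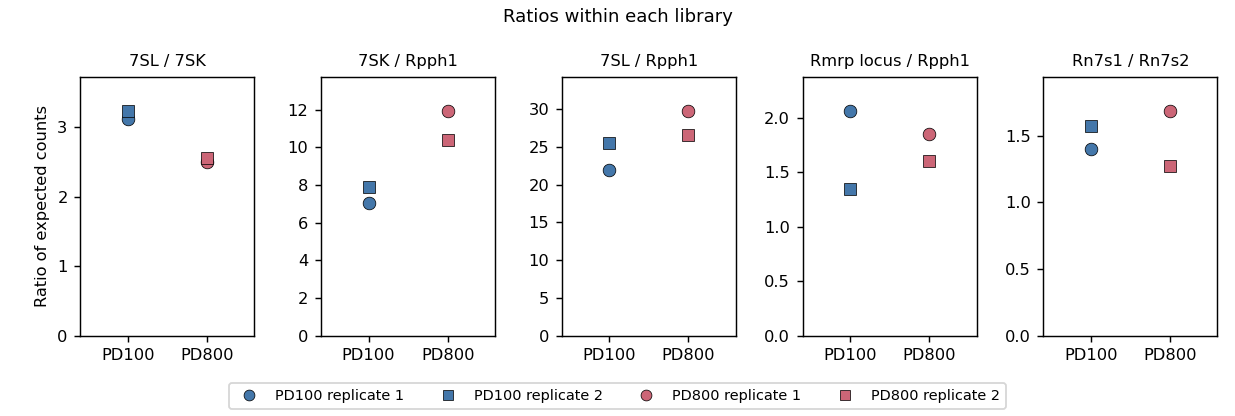
Ratios of expected counts between transcripts of the same library, with 1 point per library and axes from 0. 7SL over 7SK is lower in both PD800 libraries (2.49 and 2.55) than in both PD100 libraries (3.12 and 3.23). 7SK over *Rpph1* and 7SL over *Rpph1* are higher in both PD800 libraries. The groups overlap for the *Rmrp* locus over *Rpph1* and for *Rn7s1* over *Rn7s2*.

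The shortest transcripts had few counts. *Vaultrc5* (ENSMUSG00000065145.1, on the plus strand of chromosome 18 from 36801866 to 36802008) was assigned 125 and 178 counts at PD100, and 182 and 154 at PD800. After TMM scaling, the PD800 levels of 5.06 and 4.79 CPM fell between the PD100 levels of 3.10 and 5.33 CPM. The log2 fold change was 0.23 (SE 0.26, 95% interval -0.41 to 0.88, adjusted p = 0.506 in edgeR). Leaving out PD100 replicate 1 gave -0.11, and leaving out PD100 replicate 2 gave 0.65 (adjusted p = 0.0074 in edgeR), so that the sign rested on 1 library. The 40 tested genes nearest to *Vaultrc5* had a median log2 fold change of 0.66 (quartiles 0.35 and 1.5). The medians around the other 6 tested transcripts lay between -0.17 and 0.05, and the cause of this difference was not tested. For *Rny1* there were 31 and 15 counts at PD100, and 28 and 24 at PD800, with a log2 fold change of 0.31 (SE 0.34, 95% interval -0.53 to 1.14, adjusted p = 0.504 in edgeR), an interval that includes 2-fold. Leaving out PD100 replicate 1 gave 0.76 for *Rny1*, and leaving out PD100 replicate 2 gave -0.03. The 14 annotated genes with a near copy of *Rny1* held more counts than *Rny1* itself, with 613 and 427 at PD100 and 1451 and 1263 at PD800, all of them at *Fpgt*, a protein-coding gene with a stretch 81.2% identical to *Rny1*. *Rny3* had 3, 1, 0 and 1 counts. It did not pass the filter and was at or under the floor of 3 counts (0.0779 to 0.0924 CPM) in every library. No fold is given, and a difference was not detectable in these libraries, in all of which its effective length was 0. Such floors cover counting error only.

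Some other genes that RNA polymerase III transcribes were listed by symbol. The 184 genes so found (181 for 5S ribosomal RNA, 2 for tRNA and *Rnu6*), 79 to 132 bases long, held 1 count in all 4 libraries together, at *n-R5s26* in PD100 replicate 2. Detection differed with annotated length: of small RNA genes up to 100 bases, 0 of 739 had more than 3 counts in any library, against 101 of 2057 from 100 to 150 bases, 47 of 291 from 150 to 200 bases and 75 of 438 above 200 bases. The last class, which holds the 5 abundant transcripts, took 7.26% to 10.9% of the counts. How far the counts of *Rny1*, *Rny3* and *Vaultrc5* follow the amounts of these RNAs in the cells was not tested.

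Small RNAs made mainly by RNA polymerase II also varied between libraries. Spliceosomal and other U RNAs (21 genes, with *Rnu1b1* the most abundant) took 0.128%, 0.232%, 0.165% and 0.196% of PD100 replicates 1 and 2 and PD800 replicates 1 and 2, and annotated snoRNAs 0.220%, 0.364%, 0.229% and 0.284%. PD100 replicate 1 was the lowest of the 4 libraries in both classes, as it was in 7SL and 7SK RNA. Both classes were highest in PD100 replicate 2, and 7SK RNA in PD800. Annotated scaRNAs took 0.0300%, 0.0445%, 0.0478% and 0.0534% in the same order of libraries, so that PD800 lay above PD100 as for 7SK RNA. Mitochondrial genes took 15.4% and 11.0% at PD100, compared with 17.7% and 16.03% at PD800. Without them in the total, the 8 transcripts took 8.31% and 11.2% in PD100 and 11.7% and 12.6% in PD800. The groups no longer overlapped, but the share of all tested genes that do so was not worked out for this total. In the full total, 30.9% of tested genes had both PD800 libraries above both PD100 libraries. Replication-dependent histone genes, whose mRNAs mostly lack a poly(A) tail, took 0.924% to 0.999% in every library, with *Hist1h1a* the most abundant. Mean fragments were longest in PD100 replicate 1 (170 bases) and shortest in PD100 replicate 2 (148 bases). The part of fragment length, RNA selection and library preparation in these shares was not tested.

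The genes for the polymerase and for the proteins that bind these RNAs were read from lists of 69 symbols, of which 67 were found. They gave 68 tested genes, since *Srp54a* has 2 identifiers, and 2 were called higher and 4 lower in PD800, with a median log2 fold change of 0.03 against 0.01 over all tested genes. These calls made up 2.94% and 5.88% of the tested partners, both below the shares of all tested genes (6.28% higher and 8.81% lower). Of the 18 subunits of RNA polymerase III, 1 was called higher and 0 lower (median -0.05). *Polr3gl*, which encodes one of the alternative forms of a subunit, rose from 3.79 and 4.46 CPM in PD100 to 11.6 and 12.3 CPM in PD800 (log2 fold change 1.53, SE 0.13, adjusted p = 0.000344 in edgeR). *Polr3g*, which encodes the other form, had 65.3 and 67.3 CPM in PD100 and 47.5 and 45.5 CPM in PD800, a log2 fold change of -0.51 (adjusted p = 0.00271 in edgeR) that missed the fold threshold, and was named after its values were seen. The lowest subunit was *Polr3k*, at -0.77.

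Of the 19 initiation factors and regulators, 0 were called higher and 1 lower (median 0.15). *Snapc2* encodes a subunit of SNAPc, the complex that binds the upstream element of snRNA, 7SK, RNase P and similar promoters. It fell from 18.4 and 22.6 CPM to 5.31 and 7.19 CPM (log2 fold change -1.72, SE 0.18, adjusted p = 0.000746 in edgeR). The groups were far apart against the spread of their replicates. The other 4 SNAPc subunit genes, named after their values were seen, had log2 fold changes above 0 and were not called: *Snapc1* 0.45, *Snapc5* 0.37, *Snapc3* 0.30 and *Snapc4* 0.16. *Brf1*, a TFIIIB subunit used at tRNA and other gene-internal promoters, had the highest value of the list at 0.91 and was not called.

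Proteins of the SRP gave 0 calls among 8 tested genes (median -0.06), with *Srp19* highest at 0.82 and *Srp9* lowest at -0.21. Among 7 genes of the 7SK RNP, 0 were called higher and 1 lower (median -0.04). *Hexim2*, one of the HEXIM inhibitors of P-TEFb, fell from 6.39 and 7.55 CPM to 3.03 and 2.89 CPM (log2 fold change -1.23, SE 0.15, adjusted p = 0.00149 in edgeR), while its more abundant relative *Hexim1* had a log2 fold change of -0.04. *Mepce*, the capping enzyme of 7SK RNA, was highest at 0.61 (SE 0.11) and was not called.

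Among 11 protein genes of RNase P and RNase MRP, 1 was called higher and 0 lower (median 0.19). *Rpp25* rose from 14.8 and 16.2 CPM to 44.4 and 47.2 CPM (log2 fold change 1.56, SE 0.09, adjusted p = 0.000107 in edgeR). Its paralogue *Rpp25l* had a log2 fold change of 0.15, and *Pop1*, a large subunit of both enzymes, was lowest at -0.72. Of the 5 genes for Y RNA, La and vault proteins, 0 were called higher and 2 lower (median -0.43). *Mvp*, the shell protein of the vault, fell from 79.2 and 104 CPM to 42.9 and 46.7 CPM (log2 fold change -1.03, SE 0.14, adjusted p = 0.00205 in edgeR). *Parp4*, another vault protein, fell from 9.59 and 8.72 CPM to 5.09 and 4.05 CPM (log2 fold change -1.0002, SE 0.15, adjusted p = 0.00308 in edgeR), just past the fold threshold. *Parp4* was not called without PD100 replicate 1 (log2 fold change -0.92) or without PD800 replicate 2 (-0.85), and *Mvp* was not called without PD100 replicate 2 (-0.84) or without PD800 replicate 1 (-0.97). The gene for La, *Ssb*, was highest at 0.16. The called partners were thus single members of their lists, apart from *Mvp* and *Parp4*. *Tep1*, also a vault protein gene, was not called (log2 fold change -0.29). The RNAs of the same particles were not called.

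**Figure D4:**
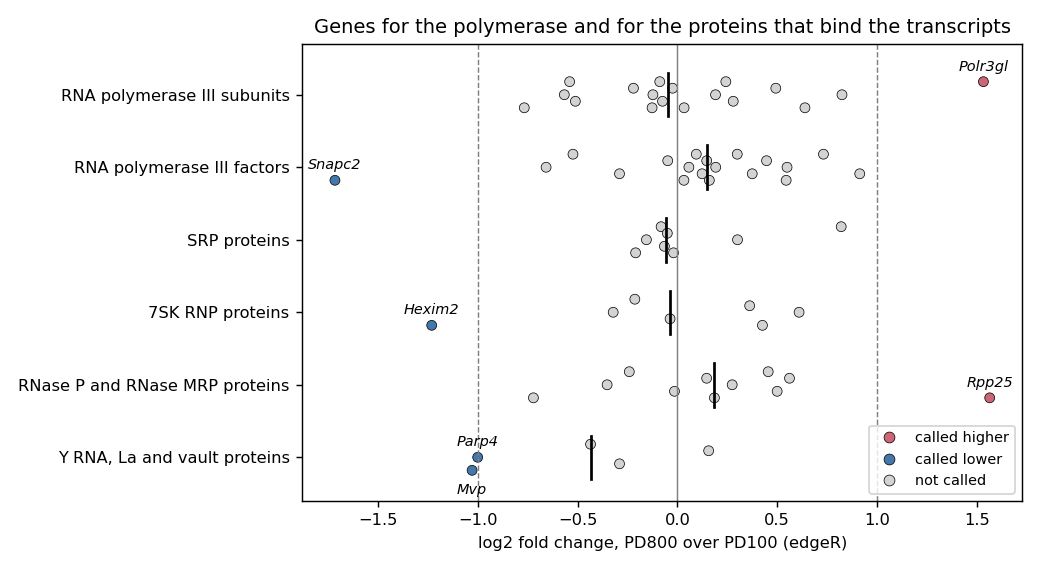
Difference between PD800 and PD100 (log2 fold change, PD800 over PD100) of 68 tested genes of the polymerase, its factors and the proteins of each particle, with 1 point per gene, a black bar at the median of each list and dashed lines at a 2-fold change. Called genes are named: *Polr3gl* and *Rpp25* lie beyond 2-fold on the higher side, and *Snapc2*, *Hexim2*, *Mvp* and *Parp4* on the lower side.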

How the data were processed

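RNA was extracted from DKO741 cells with Trizol, chloroform and isopropanol and sequenced in read pairs. The authors aligned reads to mm10 with STAR 2.5.3a and deposited, per gene and library, RSEM 1.3.0 expected counts, which are not scaled for depth, and TPM values, which are scaled for effective length and to a fixed total. The annotation release is not given in the sources used here, and 53274 of 53379 gene identifiers were found in GENCODE M21, which gave positions and transcripts. The doubling number in each label set its group.

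Shares are expected counts over the library total. Rounded counts were fitted by edgeR 4.0.16 under R 4.3.3 (at least 10 counts in filterByExpr, TMM factors between 0.960 and 1.05, quasi-likelihood test, Benjamini-Hochberg over 19148 genes). CPM of members and partners in the comparisons are TMM-scaled, and marker sums use the unscaled total. Depths of 32454121 to 38492149 put the floor of 3 counts at 0.0779 to 0.0924 CPM. Near copies were found with blastn 2.17.0 (at least 80% identity over 60% of the transcript), and the Y RNAs were compared by global alignment. Alternatives were DESeq2 1.42.0 and its size factors, upper-quartile and total-count scaling, limma 3.58.1 on log2(TPM + 1) and log2(TPM + 0.1), other filters, a replicate block and each library left out. *Rmrp* summed with AL732506.1 was added after the data were seen.

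The members and lists were chosen with earlier results of these data known. Named were all 8 transcripts, each called partner gene, and the highest and lowest log2 fold change of each partner list. *Hexim1*, *Rpp25l*, *Polr3g*, *Tep1* and the other SNAPc genes were named after their values were seen. The promoter table supplied held no entry for the 8 genes, and promoter motifs were not analysed here. The sequence of 7SL RNA is not reported here.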

Additional observations from a re-analysis of the deposited data

How the results depend on the processing

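At the thresholds of the report, no transcript was called under any scaling, filter, tool or left-out library tried. Of the partners, *Parp4* lost its call with upper-quartile factors and in both limma fits, in which *Gtf3c6* was called lower instead. With single libraries left out, 2 to 3 partners were called higher and 3 lower, with *Parp4* or *Mvp* the one lost each time, *Polr2l* gained (log2 fold change 1.002) without PD100 replicate 2 and *Brf1* gained (1.003) without PD800 replicate 1. With an adjusted p under 0.05 and no fold threshold, 1 transcript (*Rn7sk*) was called higher, as were 17 partner genes higher and 13 lower, and 4224 of all genes higher and 4515 lower. With limma on log2(TPM + 1), 297 of all genes were called higher and 920 lower, and with limma on log2(TPM + 0.1), 533 were called higher and 1779 lower, against 1202 higher and 1686 lower in edgeR. The cause was not tested. Without an expression filter the log2 fold change of 7SL RNA was 0.29 with an adjusted p of 9.31e-05 in edgeR, and with each library left out it ranged from 0.031 (without PD100 replicate 1) to 0.59 (without PD100 replicate 2), where the lone library of a group is assumed to vary like the other group. As a share of the summed TPM the 8 transcripts took 37.9% and 42.9% at PD100 and 44.6% and 45.8% at PD800. The difference was 4.81 percentage points with no overlap between the groups, and the share of all genes without overlap was not worked out in TPM. For *Rn7sk* the adjusted p was 0.000513 in DESeq2 (log2 fold change 0.62), 1.69e-15 without a filter in edgeR (0.62), 3.94e-05 without PD100 replicate 1 (0.39), 5.40e-08 without PD100 replicate 2 (0.89) and at most 0.693 over the other settings (lowest log2 fold change 0.44, limma on log2(TPM + 1)). Total-count scaling moved the median of all genes to -0.10 and limma to -0.12 and -0.21. Of 126 alternative values of the 7 tested transcripts and the 7SL and *Rmrp* sums, 15 changed sign, all for *Rn7s1*, *Rmrp*, *Rpph1*, *Rny1*, *Vaultrc5* or the *Rmrp* sum, and 15 newly passed an adjusted p of 0.01.

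No source states what same-numbered libraries share beyond the number, and the correlation of their deviations from the group means was 0.388, so that a pairing cannot be settled. With the replicate number as a block in edgeR, the log2 fold change of *Rn7sk* was 0.65 (adjusted p = 0.000558) and that of *Rn7s2* 0.33 (adjusted p = 0.00868), and no other transcript passed an adjusted p of 0.01. The counts of 3 or fewer limit *Rny3*, and near-identical genes limit the division of 7SL and *Rmrp* reads.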
